A study of Mus musculus with 34 samples.

Results

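Whole-body irradiation followed by a bone marrow transplant, with no further treatment, was examined in the thalamus. The comparison set the 3 thalamus libraries of irradiated and transplanted mice (GFP-BM CON) against the 4 thalamus libraries of untreated mice (WT CON), which are 7 of the 34 libraries of the series. These libraries were chosen by their labels, not by any measured value. All mice were C57BL/6 males. GFP-BM CON mice received 1000 cGy and then marrow from donors that express the green fluorescent protein EGFP from the CAG promoter, which is active in most cell types, and their tissue was collected about 10 months later. WT CON mice were neither irradiated nor transplanted and are labelled as given vehicle. The study also made GFP-BM REPOP mice, which were irradiated and transplanted in the same way and were then given PLX3397, an inhibitor of CSF1R, at 600 ppm over 14 days, 3.5 months after irradiation, with collection 6 months after the drug. PLX3397 starves microglia of a survival signal, and the study used it to let marrow-derived cells take the place of microglia. Neither group compared here received it. The 4 thalamus libraries of GFP-BM REPOP shared the model fit and are given as reference values.

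Irradiation and transplantation come as 1 package in GFP-BM CON, so that the parts played by the dose, the graft and the time since the procedure cannot be told apart. Each library carried the number of 1 animal. The thalamus of GFP-BM CON animal 7, whose hippocampus and cortex were sequenced, was not analysed here. Depth, read back from the deposited values, lay between 17969723 and 24146946 reads over genes in the 11 thalamus libraries. Per the protocol the thalamus was dissected together with the striatum, and both left their mark in every library. The summed level of 18 thalamic neuron markers was 345 to 612 FPKM (fragments scaled to the length of the gene and to the size of the library) in WT CON and 381 to 515 FPKM in GFP-BM CON. The summed level of 22 markers of striatal medium spiny neurons was 518 to 1818 FPKM in WT CON and 511 to 869 FPKM in GFP-BM CON. The choroid plexus list, whose genes mark the tissue that makes cerebrospinal fluid, summed to 173 to 568 FPKM and 111 to 605 FPKM. The mix of tissue therefore varied among animals of both groups, and none of these sums separated the groups.

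Microglia are the resident macrophages of the brain. They arise from the yolk sac, maintain themselves by division and depend on signalling through the receptor CSF1R. In an intact brain few cells of the blood enter the tissue. After irradiation of the head and a marrow transplant, donor-derived myeloid cells can settle there, and such cells keep an expression programme that differs from that of microglia. Radiation also acts on other brain cells, among them dividing precursors and the endothelium of vessels.

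A property of the transcripts themselves, the share of G and C bases (GC content), ran through the whole comparison and is shown first. Coding stretches of 4 genes stand at the extremes described below. *Gabra2* and *Arhgap5* have AT-rich transcripts and were among the genes with the largest higher values in GFP-BM CON, and *Crybb1* and *Lag3* have GC-rich transcripts and were among those with the largest lower values. Each sequence is the middle 90 bases of the longest coding sequence in the GENCODE annotation of GRCm38 (release vM21), written 5′ to 3′ on the coding strand, with G and C in capitals.
Gabra2: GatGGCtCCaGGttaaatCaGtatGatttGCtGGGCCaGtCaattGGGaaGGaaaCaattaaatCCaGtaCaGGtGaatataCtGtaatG
Arhgap5: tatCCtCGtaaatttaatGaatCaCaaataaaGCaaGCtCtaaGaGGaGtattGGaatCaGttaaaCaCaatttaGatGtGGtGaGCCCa
Crybb1: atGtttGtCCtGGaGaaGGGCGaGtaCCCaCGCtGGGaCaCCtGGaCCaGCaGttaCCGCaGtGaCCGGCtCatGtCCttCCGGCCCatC
Lag3: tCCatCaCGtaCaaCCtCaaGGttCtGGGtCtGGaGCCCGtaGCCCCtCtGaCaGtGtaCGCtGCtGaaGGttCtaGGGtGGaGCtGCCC

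The stretch of *Gabra2* (chr5:70958392-71095849, GRCm38) holds 40.0% G and C, and its whole transcript 38.4%. *Arhgap5* (chr12:52503763-52571978) has 34.4% in the stretch and 33.9% in the transcript. The stretch of *Crybb1* (chr5:112254563-112269585) holds 61.1%, and that of *Lag3* (chr6:124904359-124912434) holds 58.9%. The transcripts of these 2 genes have 61.8% and 59.9%. The first pair of sequences is thus dotted with runs of A and T, whereas capitals fill most of the second pair.

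No single gene passed the test between GFP-BM CON and WT CON in the thalamus. Of 14109 genes tested with limma on log2(FPKM + 0.1), in a fit that held the 3 thalamus groups, 0 were called at an adjusted p under 0.05 (0.0%). At an unadjusted p under 0.05 there were 2957 genes, of which 1920 were higher and 1037 lower in GFP-BM CON. The smallest adjusted p was 0.061, shared by 147 genes, and voom on the recovered reads and a fit of the 2 groups alone also called 0 genes, with 3067 and 1539 genes at an unadjusted p under 0.05. These p-values measure the spread between single animals.

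The outcome of the test depended on settings of the fit, which gave up to 1319 calls with all libraries kept (given further on). It also depended on 1 control library. Without WT CON replicate 1, 1130 genes were called, of which 1035 were higher (7.34% of the genes tested) and 95 lower (0.673%). Leaving out any other of the 7 libraries gave 0 calls. For that reason genes are described below mainly by their values in the libraries and by whether the 4 WT CON values and the 3 GFP-BM CON values overlapped. Calls without WT CON replicate 1 are given for some genes. That omission was picked out after the results of all omissions were seen, so these calls are not independent evidence for a gene. Groups without overlap were common: 2094 genes (14.8%) lay higher in all 3 GFP-BM CON libraries than in any WT CON library, and 1212 (8.59%) lay lower. These shares are the background against which each gene list has to be read. Among the genes tested, 263 were under 1 FPKM in every WT CON library and were tested only through the transplanted groups, and 188 of these are among the higher genes without overlap.

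The sizes of the differences were unequal in the 2 directions. The log2 fold change exceeded 1 in 1379 genes and lay below -1 in 25 genes, while the median over all genes tested was -0.06. The genes on the higher side were largely AT-rich. Genes were split into 10 bins of equal size by GC content. In the bin of lowest GC content (median 39.8%), the median log2 fold change was 1.04, and 63.2% of the genes lay higher without overlap and 0.374% lower. In the bin of highest GC content (median 60.0%), the median was -0.23, and 0.15% lay higher without overlap and 16.2% lower. The medians decreased from bin to bin, passing 0 between the fourth, at 0.08, and the fifth, at -0.05.

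**Figure D1:**
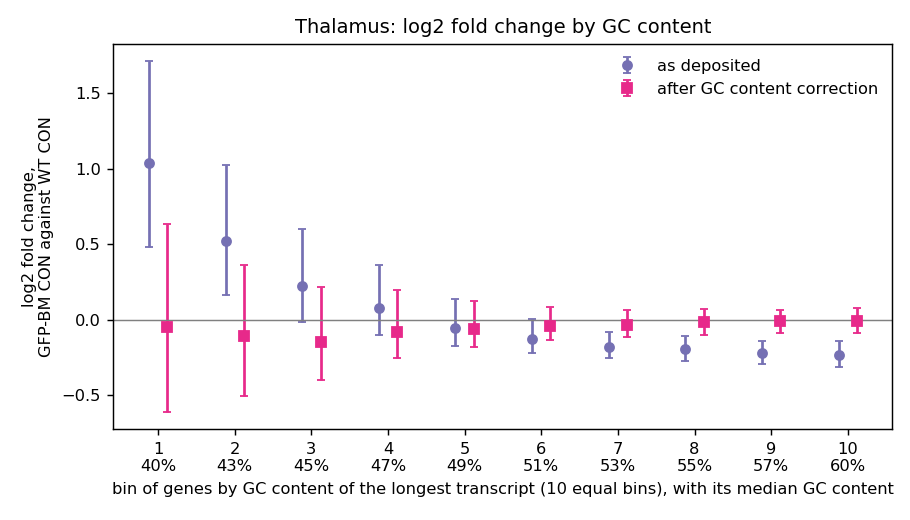
Log2 fold change (GFP-BM CON minus WT CON, thalamus) in 10 bins of genes by GC content, before and after correction for GC content. Points are medians over genes and bars the quartiles. The medians run from 1.04 in the most AT-rich bin to -0.23 in the most GC-rich bin, and after correction they lie at -0.05 and -0.01 in these 2 bins.

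A single number was used for this property of a library, namely the median log2 FPKM of the genes with at least 58.2% GC minus that of the genes with at most 41.5% (1337 genes each). It was 1.08, 3.62, 2.12 and 1.37 in the 4 WT CON thalamus libraries and 0.56, 0.43 and 0.77 in the 3 GFP-BM CON libraries. The lowest WT CON library thus lay above the highest GFP-BM CON library, and WT CON replicate 2 stood far from the other three controls. The means were 2.05 ± 1.14 (SD, n = 4) and 0.589 ± 0.172 (SD, n = 3). An exact permutation test of the difference of -1.46 gave p = 0.0571 (two-sided), which is the smallest p that 4 against 3 libraries allow. Without WT CON replicate 1, the control with the lowest value, the difference was -1.78. That library is also the one whose omission gave calls in the test of single genes. GFP-BM REPOP libraries had 0.73, 0.50, 0.48 and 0.93, in the range of GFP-BM CON. The library property and the treatment move together here, and they cannot be told apart by design. The paper's methods name 2 sequencing platforms, and which libraries ran on which is not given in the sources used here.

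**Figure D2:**
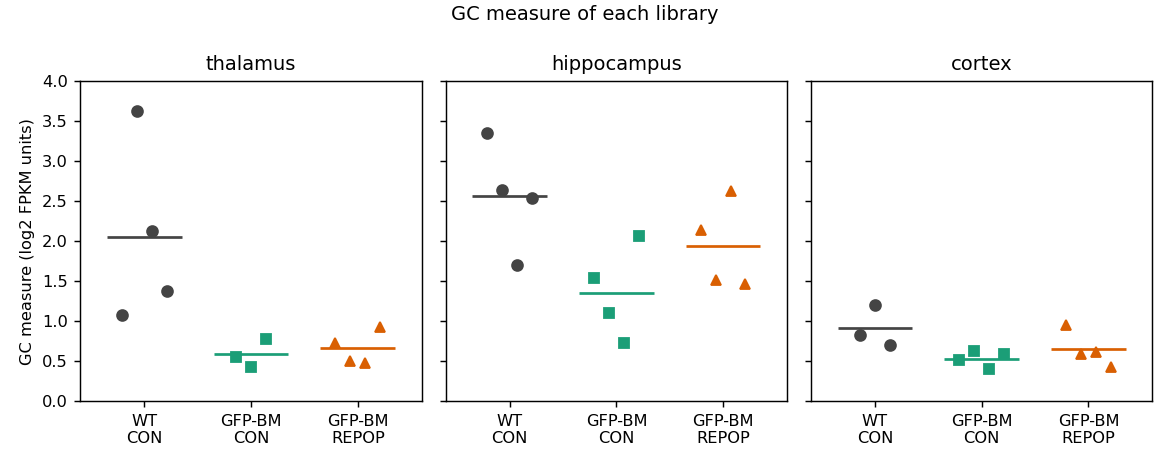
The GC measure of each library (median log2 FPKM of GC-rich genes minus that of AT-rich genes) by treatment and region, with lines at the group means. In the thalamus the 4 WT CON libraries lie between 1.08 and 3.62, all above the 3 GFP-BM CON libraries at 0.43 to 0.77.

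The comparison was therefore also made after a spline on GC content had been taken out of each library. This correction removes the average trend with GC content, whether of the library or of the tissue. It does not remove differences among genes of like GC content. In the most AT-rich bin the quartiles of the log2 fold change were 0.48 and 1.71 before and -0.61 and 0.64 after correction. In the most GC-rich bin they were -0.09 and 0.08 after it. Separate groups after correction therefore do not show that an AT-rich gene is free of the library property. It left 13365 genes, of which 2 were called (0.015%), *Gabra2* and *D130040H23Rik*, both higher. Without overlap, 1004 genes lay higher (7.51%) and 1381 lower (10.3%). Of the genes without overlap, 1325 kept their direction through the correction, and 115 lay without overlap in opposite directions before and after it. Without WT CON replicate 1, the corrected values gave 1439 calls, 676 higher (5.06%) and 763 lower (5.71%). Corrected log2 fold changes are given beside the uncorrected ones for most of the genes below.

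Genes of homeostatic microglia, the set that marks resident microglia in a healthy brain, were mostly lower in GFP-BM CON. Of 22 genes in the list 21 were tested. None was called, 11 lay lower without overlap and 2 higher, against 8.59% and 14.8% of all genes tested. *Crybb1*, *Lag3*, *Selplg*, *Itgam*, *Slc2a5*, *Siglech* and *Mlph* of this list are also in the downregulated part of the study's signature of engrafted monocytes. That signature was drawn from animals that include these control libraries, so the direction of these genes is not independent evidence. The median log2 fold change of the list was -0.37, and -0.42 after correction, when 13 lay lower and 1 higher. Over all genes the corrected shares were 10.3% lower and 7.51% higher. The summed level of the list was 317 to 479 FPKM in WT CON and 271 to 302 FPKM in GFP-BM CON. The list contains both GC-rich and AT-rich genes, and its median GC content was 51.0%. In bulk tissue, fewer microglia and less RNA of these genes per microglial cell cannot be told apart.

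*Csf1r*, the receptor on which microglia depend, was 20.4, 35.8, 26.3 and 20.02 FPKM in WT CON and 11.5, 12.4 and 12.8 FPKM in GFP-BM CON. Every GFP-BM CON library lay well under the lowest control, and the 3 were close to one another. The log2 fold change was -1.02 ± 0.19 (SE, adjusted p = 0.061, limma), and -0.85 after GC correction. Without WT CON replicate 1, *Csf1r* was called at an adjusted p of 0.01, with a log2 fold change of -1.12.

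*Crybb1*, a crystallin gene that in the brain marks microglia, was 5.98, 7.81, 4.69 and 3.69 FPKM in WT CON and 2.06, 2.54 and 1.54 FPKM in GFP-BM CON (log2 fold change -1.37 ± 0.27, SE, adjusted p = 0.061, limma). It had the largest lower value of the list. *Lag3*, which encodes a receptor for MHC class II on immune cells, was 3.51, 5.71, 3.79 and 3.30 FPKM against 1.94, 1.83 and 1.95 FPKM, a log2 fold change of -1.03 ± 0.22 (SE). After correction the log2 fold changes of these GC-rich genes were -1.14 and -0.80, and the groups still did not overlap. Without WT CON replicate 1 both were called, at adjusted p-values of 0.0288 and 0.0246.

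*Selplg* encodes PSGL-1, a ligand of selectins. Its levels were 4.77, 7.52, 4.28 and 4.62 FPKM in WT CON and 2.93, 2.33 and 2.96 FPKM in GFP-BM CON, with a log2 fold change of -0.90 (-0.86 after correction). *Tmem119*, a membrane protein much used to mark microglia, was 10.3, 17.5, 10.9 and 9.24 FPKM against 7.45, 6.65 and 8.15 FPKM, a log2 fold change of -0.65 (-0.42 after correction). Both genes were lower in all 3 libraries than in any control.

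*Cx3cr1*, the fractalkine receptor, was 9.71 to 15.4 FPKM in WT CON and 8.44 to 9.17 FPKM in GFP-BM CON. *Itgam*, which encodes CD11b, was 4.43 to 5.60 FPKM against 3.69 to 3.97 FPKM. The fructose transporter gene *Slc2a5*, the transcription factor gene *Sall1* and the purine receptor gene *P2ry13* lay lower without overlap as well, with log2 fold changes of -0.75, -0.33 and -0.30. After correction they were -0.60, -0.23 and -0.74.

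Some microglial genes went the other way or could not be placed. *P2ry12*, the purine receptor that defines resident microglia in many studies, has an AT-rich transcript of 38.6% GC. Its levels were 6.70, 0.62, 2.86 and 5.03 FPKM in WT CON and 7.67, 7.54 and 7.57 FPKM in GFP-BM CON. It was thus lowest in the control with the highest GC measure, its log2 fold change was 1.39 before and 0.18 after correction, and the corrected groups overlapped. The AT-rich *Gpr34*, a lysophospholipid receptor gene, went from 0.34 with overlap to -1.06 without it. *Siglech*, a lectin gene of microglia, was 4.27, 1.96, 4.09 and 4.10 FPKM against 2.66, 3.07 and 3.05 FPKM, so that only WT CON replicate 2 lay under the GFP-BM CON range. *Golm1*, which encodes a Golgi membrane protein, lay higher without overlap, at 6.63 to 7.96 FPKM against 3.70 to 6.28 FPKM. *Fcrls*, an Fc receptor-like gene of microglia, had a log2 fold change of -0.03 and overlapping groups.

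GFP-BM REPOP animals, in which PLX3397 followed the transplant, share the WT CON libraries as controls, so only levels are set side by side. *Crybb1* averaged 5.54 ± 1.79 FPKM in WT CON, 2.05 ± 0.502 FPKM in GFP-BM CON and 0.905 ± 0.212 FPKM in GFP-BM REPOP (SD, n = 4, 3 and 4). *Lag3* averaged 1.03 ± 0.209 FPKM and *Selplg* 1.59 ± 0.304 FPKM in GFP-BM REPOP, under every GFP-BM CON value. *Csf1r* at 15.4 ± 2.18 FPKM and *Cx3cr1* at 9.90 ± 0.801 FPKM were not lower in GFP-BM REPOP than in GFP-BM CON.

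A second set of myeloid genes was taken from the upregulated part of the study's signature of engrafted monocytes, without *Nnt* and *Wdfy1*. *Apoe* and *Clec7a*, which the study named as members of a module of co-expressed genes and not of that signature, were added, which made 14 genes. *Nnt* and *Wdfy1*, the signature genes left out of the set, are described with the candidate substrain genes further on. The study drew its signature from animals that include these control libraries, so the direction of its genes is not independent evidence. In the thalamus 10 of the 14 were expressed enough to be tested and 0 were called. Of these 10, 7 were under 1 FPKM in every WT CON library and were tested only because they reached it in transplanted animals, so no count or median over the set is read.

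*Lyz2*, which encodes the lysozyme of macrophages and granulocytes, was 13.4, 29.7, 12.8 and 14.8 FPKM in WT CON and 46.2, 40.9 and 34.1 FPKM in GFP-BM CON. The lowest transplanted library exceeded the highest control, WT CON replicate 2, which itself stood apart from the other three. The log2 fold change was 1.27 ± 0.29 (SE, adjusted p = 0.0691, limma) and 1.21 after correction. In GFP-BM REPOP *Lyz2* averaged 136 ± 35.8 FPKM (SD, n = 4), above all GFP-BM CON values.

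*Apobec1*, an RNA-editing deaminase gene expressed by myeloid cells, was 0.777, 0.615, 0.695 and 0.933 FPKM in WT CON and 1.44, 1.21 and 1.28 FPKM in GFP-BM CON. Its log2 fold change was 0.73, and 0.51 after correction without overlap. After correction the groups stayed apart in *Lyz2* and *Apobec1* and overlapped in the other members of the set that lay higher.

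*Ms4a7*, a membrane protein gene of macrophages derived from blood, was 0.341, 0.460, 0.335 and 0.049 FPKM against 1.20, 1.04 and 0.941 FPKM. These levels rest on few reads, between 1 and 9 per WT CON library and between 19 and 27 per GFP-BM CON library. The log2 fold change was 1.70 before and 0.98 after correction, when the groups overlapped. The related gene *Ms4a6c* was 0.210 to 0.441 FPKM against 0.732 to 0.954 FPKM, and the inhibitory receptor gene *Lilrb4a* was 0.083 to 0.563 FPKM against 0.888 to 2.00 FPKM. The mannose receptor gene *Mrc1*, a marker of macrophages at the borders of the brain, was 0.262 to 0.601 FPKM against 0.680 to 1.24 FPKM. In these 3 genes, with 41.6% to 43.4% GC, the groups overlapped after correction.

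The remaining members overlapped from the start. *Clec7a*, which encodes the receptor dectin-1, was 0.304 to 0.444 FPKM in WT CON and 0.440 to 0.813 FPKM in GFP-BM CON. *Apoe*, the apolipoprotein gene that astrocytes also express, had a log2 fold change of -0.15. *Ms4a6b* and *AU020206* had 0.71 and 0.21, both with overlap. The list of border macrophages and blood myeloid cells had 5 of 16 members expressed enough to be tested, and it summed to 6.73 to 16.6 FPKM in WT CON and 7.40 to 10.4 FPKM in GFP-BM CON, ranges that overlapped.

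**Figure D3:**
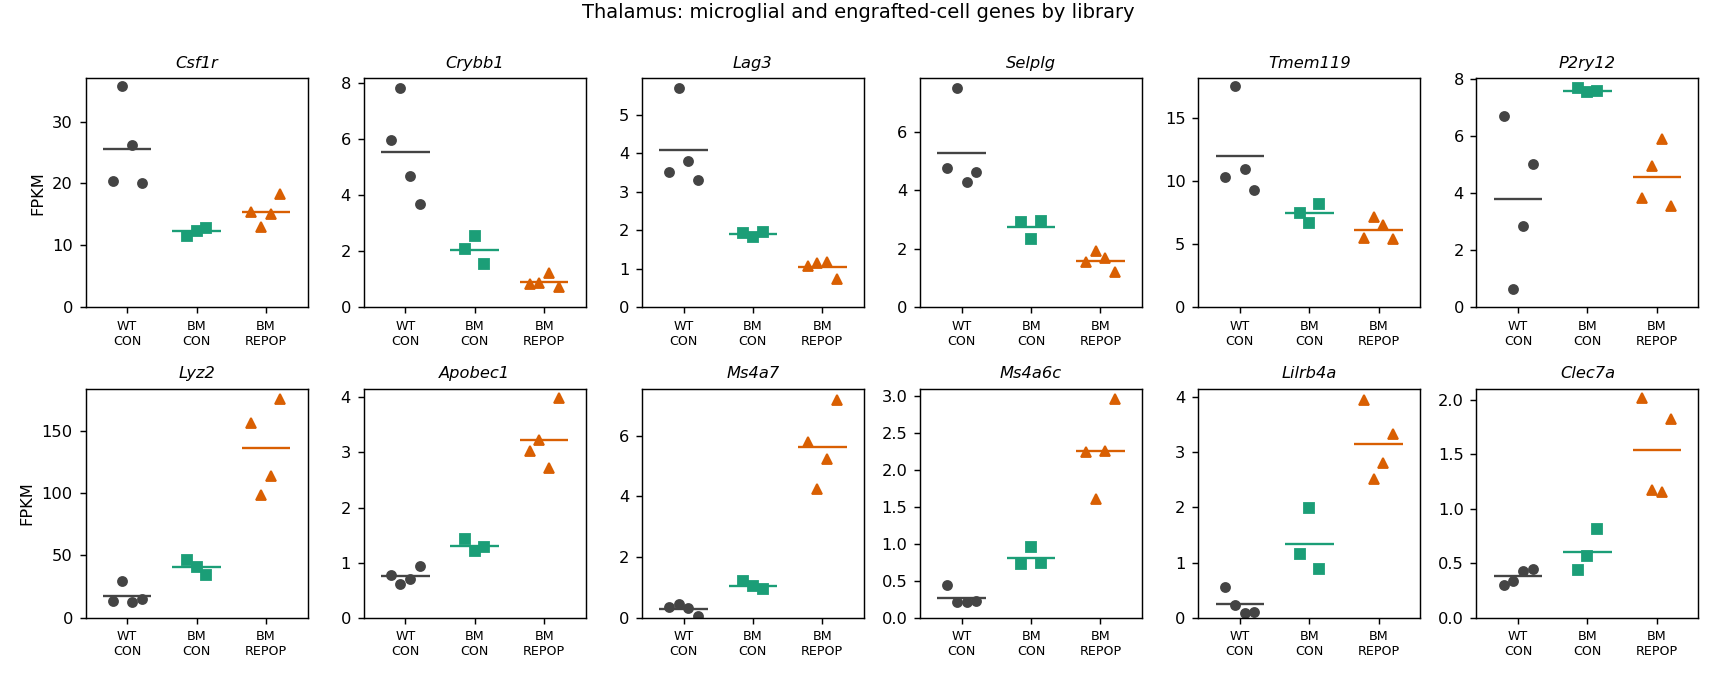
FPKM of microglial genes and of genes of engrafted myeloid cells in each thalamus library, by group (BM CON and BM REPOP stand for GFP-BM CON and GFP-BM REPOP), with lines at the group means. Csf1r, Crybb1 and Lag3 lie lower in all 3 GFP-BM CON libraries than in any WT CON library, and Lyz2 and Apobec1 lie higher.

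GABA-A receptors are the chloride channels that carry fast inhibition, and each is built of 5 subunits. Of 14 subunit genes tested, 0 were called, 6 lay higher without overlap (background 14.8%) and 0 lower, with a median log2 fold change of 1.03. The list had a median GC content of 42.6%. After correction the median log2 fold change was 0.31, with 3 higher and 1 lower without overlap, against 7.51% and 10.3% of all genes.

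*Gabra2*, the alpha2 subunit of GABA-A receptors, was 4.61, 0.58, 1.28 and 1.65 FPKM in WT CON and 16.3, 20.5 and 16.4 FPKM in GFP-BM CON. The lowest transplanted value was several-fold above the highest control. Its log2 fold change was 3.41 ± 0.52 (SE, adjusted p = 0.061, limma). After GC correction it was 2.17 and passed the test, at an adjusted p of 0.049. In GFP-BM REPOP it averaged 19.7 ± 7.75 FPKM (SD, n = 4).

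*Gabrb2*, the beta2 subunit, was 21.2, 2.52, 3.27 and 9.95 FPKM against 44.5, 49.6 and 34.9 FPKM, with a log2 fold change of 2.69 and 2.18 after correction. *Gabrb1*, the beta1 subunit, was 6.76, 2.76, 3.30 and 4.08 FPKM against 14.3, 13.4 and 9.74 FPKM, with 1.60 and 0.70. In both genes the groups stayed apart after correction. In *Gabrg1*, the gamma1 subunit, they did not. It lay higher without overlap at first, with a log2 fold change of 1.44, and stood at -0.21 with overlap after correction.

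Among 24 genes of glutamate receptor subunits, 8 lay higher without overlap and 1 lower, against 14.8% and 8.59% of all genes tested, and none was called. The median log2 fold change was 0.34, and 0.20 after correction, with 5 higher and 0 lower, against 7.51% and 10.3% of all genes. *Gria2*, the AMPA receptor subunit that controls calcium passage, was 18.8, 3.25, 3.63 and 6.02 FPKM in WT CON and 58.5, 70.5 and 26.7 FPKM in GFP-BM CON (log2 fold change 2.96, corrected 1.52). *Grik1*, a kainate receptor subunit of 47.9% GC, was 3.15 to 3.92 FPKM against 4.96 to 5.98 FPKM (0.56, corrected 0.47). *Grin1*, the obligate NMDA receptor subunit, was the gene that lay lower, at 79.0 to 117 FPKM against 75.1 to 78.6 FPKM, and it overlapped after correction.

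The 12 genes of largest log2 fold change by the naming rule were *Gabra2*, *Plcxd3*, *Arhgap5*, *Atrx*, *Esf1*, *Rb1cc1*, *Pcm1*, *Tmed5*, *Arid4b*, *Fut9*, *Zfp946* and *Zfp982*. *Plcxd3*, a phospholipase-like gene, was 1.10, 0.177, 0.208 and 0.194 FPKM in WT CON and 4.97, 9.08 and 2.28 FPKM in GFP-BM CON, with a log2 fold change of 3.53 ± 0.70 (SE) and 2.64 after correction. *Arhgap5*, a GTPase-activating protein gene, was 2.68, 0.564, 0.614 and 1.83 FPKM against 14.6, 26.5 and 5.84 FPKM, with 3.39 and 1.56. *Atrx*, a chromatin remodeller gene on the X chromosome, was 3.07, 0.586, 0.680 and 1.56 FPKM against 13.4, 20.4 and 6.02 FPKM, with 3.20 and 2.11. In these genes GFP-BM CON replicate 2 was the highest and replicate 3 the lowest of the transplanted libraries, and WT CON replicate 1 was the highest control.

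*Esf1*, a gene of ribosome biogenesis, *Rb1cc1*, which encodes the autophagy protein FIP200, *Pcm1* of centriolar satellites, *Tmed5* of vesicle traffic and *Arid4b* of chromatin followed the same pattern, with log2 fold changes between 3.03 and 3.32. All 5 kept separate groups after correction, with log2 fold changes of 2.16, 1.97, 2.25, 1.40 and 2.10. *Fut9*, a fucosyltransferase gene, had 3.04, and 1.36 with overlapping groups after correction. *Zfp982*, a zinc finger gene, was listed at 0 in 2 WT CON libraries and reached 0.183 FPKM in the other two, against 2.36, 3.45 and 0.770 FPKM in GFP-BM CON. It was thus under 1 FPKM in every WT CON library and was tested only through the transplanted groups.

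A large higher value was also seen in 1 gene of the most GC-rich bin, where 0.15% of the genes lay higher without overlap. *Kcna3*, a voltage-gated potassium channel gene known from T cells and microglia and expressed in neurons too, has 60.2% GC. It was 1.95, 0.830, 0.740 and 0.864 FPKM in WT CON and 4.69, 7.12 and 3.21 FPKM in GFP-BM CON. Its log2 fold change was 2.12 ± 0.43 (SE, adjusted p = 0.061, limma) before and 2.35 after correction, while GC-rich genes as a whole lay slightly lower. *Bod1l* and *Nol8*, genes of genome maintenance and of the nucleolus, had corrected log2 fold changes of 2.31 and 2.18. They were named for these corrected values and not for their GC content.

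The 20 genes of smallest p, all higher in GFP-BM CON and all at an adjusted p of 0.061, included *Gabra2*, *Gabrb1*, *Tmed5*, *Xkr4*, *Pcdh11x*, *Bmpr2*, *Ago3*, *Dgkh* and *Polb*. *Ago3*, an Argonaute protein gene of small RNA silencing, was 1.28, 0.384, 0.536 and 0.933 FPKM against 4.19, 5.04 and 2.52 FPKM, with a log2 fold change of 2.25 and 1.45 after correction. *Polb*, the DNA polymerase of base excision repair, was 22.4, 19.2, 18.6 and 21.5 FPKM against 31.1, 32.3 and 28.8 FPKM. Its log2 fold change of 0.59 was 0.01 after correction, with overlapping groups. *D130040H23Rik*, a zinc finger gene model, was 0.346, 0.048, 0.236 and 0.413 FPKM against 2.52, 3.42 and 1.74 FPKM. It passed the test after correction, with a log2 fold change of 2.40 at an adjusted p of 0.049. It was under 1 FPKM in every WT CON library, however, and was tested only because it reached that level in transplanted animals.

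By Pearson correlation of log2(FPKM + 0.1) over the 11 thalamus libraries, the genes most like *Gabra2* were *Lrch2* (0.988), *Gabrb1* (0.984), *Xkr4* (0.983), *Pgm2l1* (0.981) and *Zfp72* (0.979). All 5 had at most 40.9% GC, and the GC measure of these libraries ran from 0.43 to 3.62. Whether the correlations go beyond that difference among libraries was not tested. *Pgm2l1*, which makes glucose 1,6-bisphosphate in the brain, was 16.3, 2.75, 3.67 and 6.95 FPKM in WT CON and 33.5, 38.6 and 25.4 FPKM in GFP-BM CON.

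C57BL/6 mice from different breeders carry inherited differences in a few genes, and a list of 14 such candidate genes was examined, *Gabra2* among them. Of 12 tested, 3 lay higher and 3 lower without overlap, against 14.8% and 8.59% of all genes, and none was called. *Nnt*, the mitochondrial transhydrogenase, was 5.65, 6.63, 5.14 and 4.69 FPKM in WT CON and 8.11, 8.39 and 7.50 FPKM in GFP-BM CON, with a log2 fold change of 0.54 before and 0.55 after correction. *Wdfy1*, an endosomal adaptor gene, was 7.03, 3.54, 6.83 and 6.56 FPKM against 13.6, 14.4 and 20.2 FPKM, with 1.44 and 1.11. In both the groups stayed apart after correction.

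A few genes were also compared between regions of the same animal. They were singled out after their values were seen. *Entpd4b* belongs to a pair of near-identical copies with *Entpd4*, enzymes that cleave nucleotides in the Golgi, and reads may have been divided between them. In GFP-BM CON animal 18 it was 64.0, 67.3 and 62.0 FPKM in thalamus, hippocampus and cortex. In animal 6 the 3 values were 48.6, 42.9 and 46.9 FPKM, and in animal 9 they were 33.2, 33.6 and 31.4 FPKM. Animal 7 had 40.5 and 46.8 FPKM in hippocampus and cortex. Animals 18, 6 and 9 thus stood at separate levels that each kept in every region. WT CON libraries lay between 60.8 and 93.6 FPKM over all regions, and 1 of these animals, number 34, covered that whole range by itself.

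In the thalamus GFP-BM CON animal 9 also stood apart from animals 18 and 6 in other genes. It had 20.2 FPKM of *Wdfy1*, with 17.3 and 16.8 FPKM in its hippocampus and cortex, and 5.0 FPKM of *Tmem254a*, a membrane protein gene, where animals 18 and 6 had 9.68 and 9.32 FPKM. For *Tmem254a* the hippocampus of animal 9 was at 9.33 FPKM. Its cortex was at 5.32 FPKM, against 10.3, 11.1 and 10.9 FPKM in animals 18, 6 and 7. *Plac9a*, a gene of a small secreted protein with a close copy in *Plac9b*, was 24.4, 37.3, 15.4 and 23.3 FPKM in WT CON and 12.9, 11.9 and 4.48 FPKM in GFP-BM CON, the lowest value again in animal 9, whose hippocampus had 18.5 FPKM, more than that of animal 18 at 7.69 FPKM. In the cortex *Plac9a* was 3.53 FPKM in animal 9, against 13.4, 9.80 and 8.78 FPKM in animals 18, 6 and 7. *Plac9a*, *Tmem254a* and *Entpd4* all lie on chromosome 14. For the chemokine gene *Ccl21b*, one of several near-identical copies, GFP-BM CON thalamus values of 6.93 to 7.49 FPKM were close together, while GFP-BM REPOP animals were between 0.214 and 6.22 FPKM. Per the study's methods all mice came from 1 supplier, and whether inherited differences play a part in these values was not tested.

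**Figure D4:**
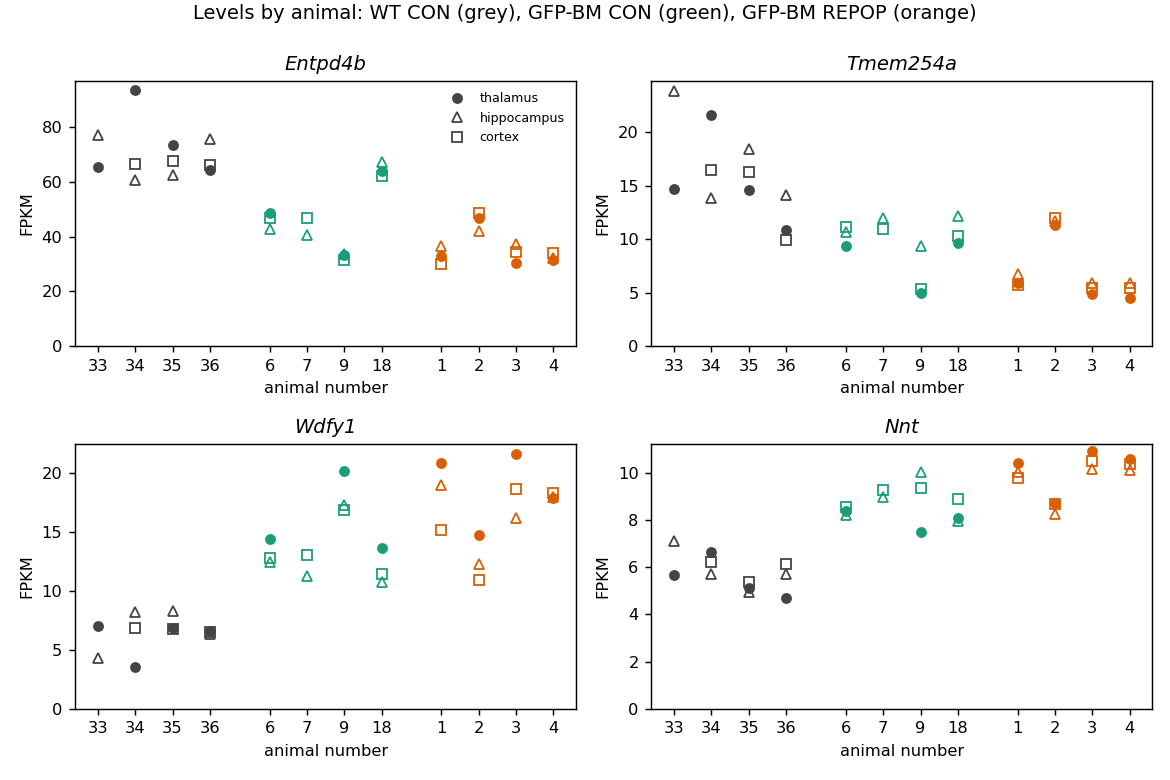
FPKM by animal and region for genes that differ between animals, with the animals of each group side by side. Entpd4b in GFP-BM CON is 62.0 to 67.3 FPKM in animal 18, 42.9 to 48.6 FPKM in animal 6 and 31.4 to 33.6 FPKM in animal 9, in all 3 regions.

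Some genes of vessel walls lay lower. Mural cells, the smooth muscle cells and pericytes around vessels, and meningeal cells were represented by 16 genes, of which none was called, 5 lay lower without overlap (background 8.59%) and 0 higher, and 4 had a positive log2 fold change. The median was -0.37, and -0.30 after correction, with 5 lower, against 10.3% of all genes. *Acta2*, the actin of smooth muscle, was 12.2, 17.3, 6.95 and 12.4 FPKM in WT CON and 5.70, 5.04 and 4.84 FPKM in GFP-BM CON, a log2 fold change of -1.15 ± 0.31 (SE) and -1.12 after correction. *Tagln* (transgelin), *Myh11* (smooth muscle myosin) and *Pdgfrb* (the pericyte receptor for PDGF) had -0.90, -0.74 and -0.43, and kept separate groups after correction at -0.77, -0.59 and -0.25. *Tagln* was called without WT CON replicate 1, at an adjusted p of 0.0439. The summed level of the list was 112 to 213 FPKM in WT CON and 110 to 129 FPKM in GFP-BM CON, so the sums overlapped although these genes did not.

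Of 20 endothelial and barrier genes, 3 lay lower and 1 higher without overlap, and 7 lay lower after correction, against 10.3% of all genes. *Vwf*, the von Willebrand factor of endothelial cells, was 4.34, 7.60, 3.88 and 4.19 FPKM against 3.08, 2.58 and 2.30 FPKM, with a log2 fold change of -0.84 and -0.64 after correction. *Slc7a5*, the large amino acid transporter of the barrier, had -0.40, and -0.20 after correction. *Slco1a4*, an organic anion transporter gene of 40.3% GC, went from 0.63 higher to -0.35 lower with the correction. *Cldn5*, the claudin of tight junctions, had -0.20 with overlapping groups.

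Immediate early genes are switched on by neurons within minutes of activity, and some of them lay lower. Of 15 tested, none was called, 6 lay lower without overlap, against 8.59% of all genes, and 0 higher. The median log2 fold change was -0.58, and -0.36 after correction with 4 lower, against 10.3% of all genes. *Fos* was 7.41, 9.64, 9.99 and 14.0 FPKM in WT CON and 4.68, 5.66 and 4.54 FPKM in GFP-BM CON, with a log2 fold change of -1.0 and -0.89 after correction, and was called without WT CON replicate 1 at an adjusted p of 0.0353. With the GC correction that omission gave *Fos* an adjusted p of 0.0546, and no immediate early gene was then called. *Egr1*, a zinc finger transcription factor gene, was 43.2, 41.3, 43.3 and 35.1 FPKM against 27.6, 21.2 and 19.8 FPKM, with -0.84 and -0.63. The nuclear receptor gene *Nr4a1* and the phosphatase gene *Dusp1* kept separate groups after correction, whereas *Npas4* and *Fosb* overlapped. *Jun*, of the same class, had a log2 fold change of 0.05.

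ATF4 is a transcription factor of amino acid and mitochondrial stress. *Atf4* itself was 38.2, 55.3, 37.7 and 45.0 FPKM in WT CON and 29.7, 32.5 and 32.2 FPKM in GFP-BM CON, with a log2 fold change of -0.47 and -0.28 after correction. Of 15 genes of its list, 4 lay lower and 3 higher without overlap, against 8.59% and 14.8% of all genes tested. None was called, and the median was -0.27. *Mthfd2*, of mitochondrial one-carbon metabolism, *Chac1*, which cleaves glutathione, and *Asns*, asparagine synthetase, lay lower with -0.58, -0.71 and -0.36, or -0.55, -0.50 and -0.47 after correction. The cystine transporter gene *Slc7a11*, with 40.7% GC, and *Aldh1l2*, a folate enzyme gene, lay higher with 1.59 and 0.79, or 0.65 and 0.68 after correction. Members of the list thus went both ways, and *Atf4*, *Mthfd2* and *Chac1* were called without WT CON replicate 1, at adjusted p-values of 0.033, 0.0369 and 0.0478, as was *Slc7a11* on the higher side at 0.01. Over all genes that omission called 0.673% lower and 7.34% higher. With the GC correction it called 2 genes of the list lower and 1 higher, against 5.71% and 5.06% of all genes.

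Radiation damages DNA, and p53 is the transcription factor that such damage activates. Of 18 of its targets tested 2 lay higher and 3 lower without overlap, against 14.8% and 8.59% of all genes tested. None was called, and the median log2 fold change was -0.03. *Cdkn1a*, which encodes the cell cycle inhibitor p21, was 4.74, 6.28, 5.62 and 5.17 FPKM in WT CON and 5.79, 5.77 and 5.04 FPKM in GFP-BM CON, with overlap. *Btg2*, an antiproliferative gene, lay lower without overlap at -0.57, or -0.54 after correction, and *Polk*, a DNA polymerase that bypasses lesions, lay higher at 1.16, or 0.34 with overlap after correction. Interferon-stimulated genes had 2 higher and 0 lower of 17, complement genes 1 higher and 0 lower of 14, and genes of MHC and antigen presentation 0 higher and 1 lower of 18. *C1qa*, a chain of the complement component C1q made by microglia, had -0.30 with overlap. *Cd46*, a complement regulator gene of 39.1% GC, was 0.703, 0.119, 0.162 and 0.190 FPKM against 1.82, 2.12 and 1.21 FPKM, with 2.39 and 1.24 after correction. It was the 1 complement gene that lay higher. It was under 1 FPKM in every WT CON library and was tested only through the transplanted groups. The same holds for 1 of the 2 higher interferon-stimulated genes.

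Of 21 astrocyte genes, 1 lay lower and 0 higher without overlap, with a median of -0.06. *Gfap*, the intermediate filament of reactive astrocytes, was 63.0, 146, 69.0 and 75.3 FPKM in WT CON and 65.5, 92.2 and 78.8 FPKM in GFP-BM CON, and only WT CON replicate 2 stood out. Of 18 genes of myelinating oligodendrocytes, 3 lay higher without overlap and 0 lower, with a median of -0.16. *Mbp*, a major myelin protein gene, had -0.27 with overlapping groups. Genes of oligodendrocyte precursors had 3 higher and 2 lower of 15. Their median was -0.25, or -0.08 after correction, and 10 of the 15 were negative in each case. The higher ones included *Vcan*, a proteoglycan gene, and *Lhfpl3* with 1.49 and 1.72, or 0.94 and 0.89 after correction. Over all genes tested the shares without overlap were 14.8% higher and 8.59% lower.

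The study stained 4 proteins of synapses and neurites. The median over their genes was -0.15 on the log2 scale, with 3 negative and 1 positive. *Dlg4* of the postsynaptic density, *Sv2a* of synaptic vesicles and *Rbfox3* of neuronal nuclei had -0.31, -0.26 and -0.04, all with overlap. *Map2*, the dendritic microtubule protein, was 101, 10.7, 26.5 and 58.5 FPKM in WT CON and 116, 120 and 109 FPKM in GFP-BM CON. The controls spread over a wide range and the transplanted libraries did not, and the log2 fold change was 1.67, or 1.57 after correction. Of 18 thalamic neuron genes, 2 lay higher and 0 lower without overlap. These were the nuclear receptor gene *Rora* and the homeobox gene *Zfhx3*, with log2 fold changes of 2.11 and 0.94, and 1.20 and 1.09 after correction. Of 10 genes of the cell cycle and neurogenesis, 1 lay higher and 0 lower without overlap, with a median of 0.07. The 1 gene was *Sox11*, of immature neurons, at 2.498 to 2.56 FPKM in GFP-BM CON and 0.744 to 1.94 FPKM in WT CON, with a log2 fold change of 0.82, or 0.59 after correction.

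Long non-coding RNAs, many of which stay in the nucleus, lay higher without overlap in 6 of 13 cases and lower in 1. Over all genes tested the shares were 14.8% and 8.59%, and no RNA of the list was called. Of the 6, *Snhg14* was under 1 FPKM in every WT CON library and was tested only through the transplanted groups. *Malat1*, an abundant RNA of nuclear speckles, was 177, 51.0, 98.7 and 138 FPKM in WT CON and 326, 324 and 218 FPKM in GFP-BM CON, with a log2 fold change of 1.43 and 0.72 after correction. *Meg3* and *Snhg11* had 1.02 and 1.24, and 1.02 and 0.82 after correction, with separate groups in both fits. *Snhg14*, the long transcript antisense to *Ube3a*, was 0.899, 0.285, 0.198 and 0.608 FPKM against 4.55, 8.34 and 1.92 FPKM. Strand was not stated for the counting, so reads of *Snhg14* and of genes on the other strand cannot be told apart.

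The mitochondrial genome shows how far the correction reaches. Its 13 protein genes, parts of the respiratory chain, had a median GC content of 37.1%. Of these, 11 lay higher without overlap and 0 lower, with a median log2 fold change of 0.65. After correction 0 lay higher and 11 lower, with a median of -0.90. Over all genes the shares without overlap were 14.8% higher and 8.59% lower, and 7.51% and 10.3% after correction. In the most AT-rich bin 63.2% of the genes lay higher before correction. *ND6*, a subunit of complex I, was 1518, 587, 1015 and 1233 FPKM in WT CON and 2325, 2462 and 2097 FPKM in GFP-BM CON, and its log2 fold change of 1.16 became -0.65. *COX1*, of complex IV, was 9688 to 12730 FPKM against 12130 to 12620 FPKM, and 0.11 became -0.93. No direction can be read for these genes, because it turns with the correction.

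**Figure D5:**
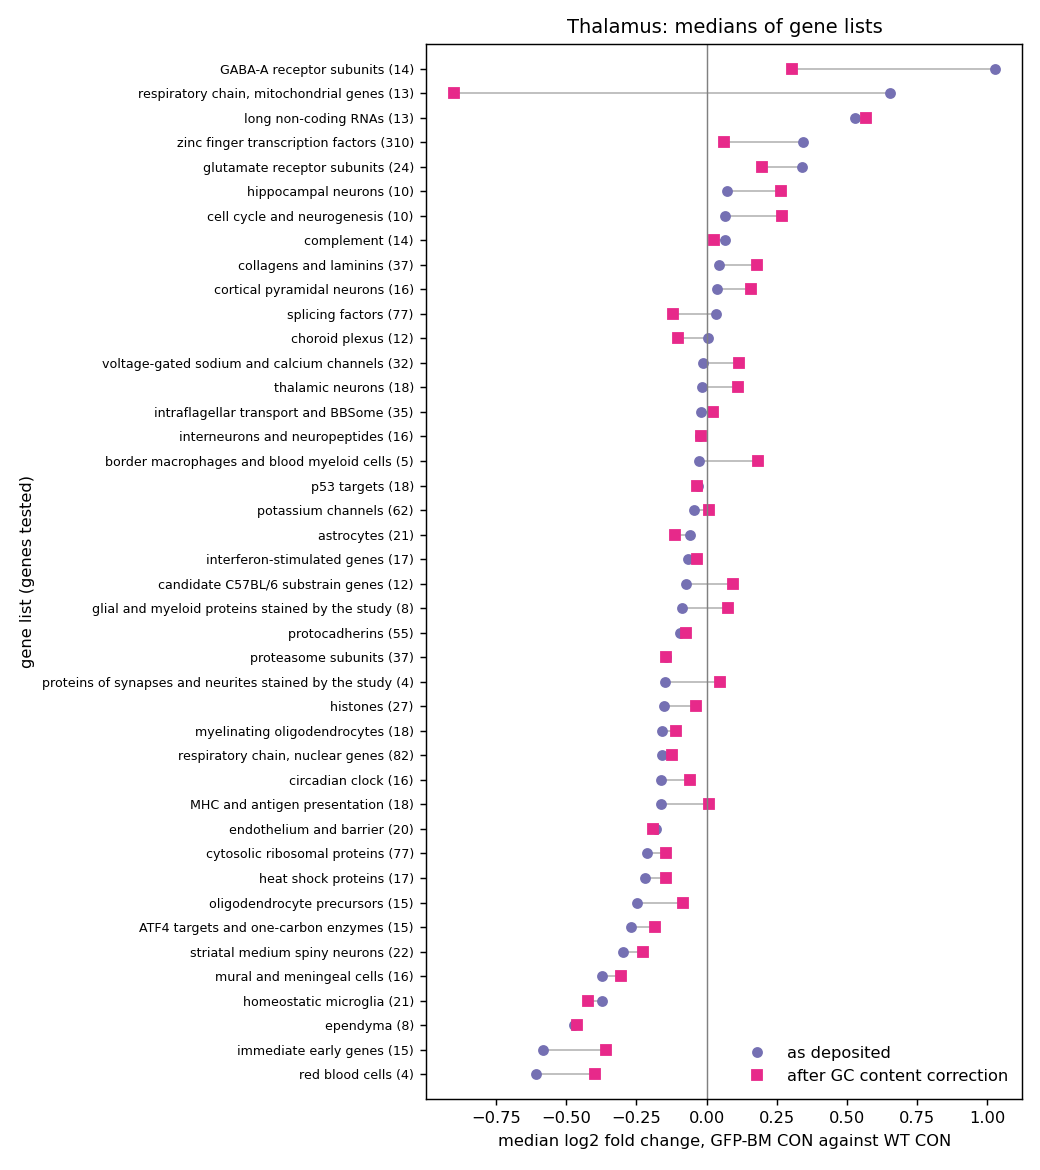
Median log2 fold change (GFP-BM CON minus WT CON, thalamus) of the gene lists before and after correction for GC content. The microglial, immediate early and mural lists lie below 0 under both, GABA-A receptors go from 1.03 to 0.31, and the mitochondrial genes go from 0.65 to -0.90.

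With fewer controls, groups separate more easily. Without WT CON replicate 1, 3116 of all genes tested lay higher and 2600 lower without overlap, and without WT CON replicate 2, 2192 and 1329. Under these omissions the microglial list had 13 and 12 genes lower, the immediate early genes 7 and 6, and the mural list 6 and 5. The GABA-A receptor subunits had 9 and 6 genes higher.

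The same comparison in the hippocampus and the cortex was set beside that in the thalamus. In 1 model of the 9 groups, in which libraries of 1 animal were allowed to correlate, 1276 genes were called in the thalamus (1113 higher, 163 lower), 2789 in the hippocampus and 0 in the cortex. Tested directly, the effect in the thalamus differed from that in the cortex in 0 genes (0.0%) and from that in the hippocampus in 0 genes (0.0%). At an unadjusted p under 0.05 there were 493 and 366 genes, and the smallest adjusted p-values were 0.69 and 1.0 (limma). Thus no gene was shown to respond in the thalamus alone. The GC measure was lower in GFP-BM CON in these regions too, by a difference of -1.20 in the hippocampus, where the groups overlapped, and of -0.377 in the cortex, where they did not (exact permutation p = 0.0571, two-sided, for each).

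Side by side, *Crybb1* had log2 fold changes of -1.37 in the thalamus, -1.07 in the hippocampus and -1.03 in the cortex. *Lag3* had -1.03, -0.79 and -0.97, and *Lyz2* had 1.27, 1.16 and 0.83. *Gabra2* had 3.41, 3.14 and 1.86. *Fos* had -1.0, -1.45 and -0.93. *Acta2* had -1.15 in the thalamus, 0.17 in the hippocampus and -0.17 in the cortex. Its differences between regions had unadjusted p-values of 0.022 and 0.094 (limma) and did not pass the adjusted threshold.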

How the data were processed

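RNA of 34 brain samples was sequenced by the study with paired reads of 150 bases. Per the paper and the submitters' processing notes, the authors aligned reads with STAR to mm10, counted them per gene with featureCounts of Rsubread, and used limma and edgeR. The authors deposited 1 table of FPKM values for 16389 genes, normalized to gene length and library size. Within a tolerance of 0.01, 100.0% of the values were whole reads once multiplied back, which gave the depths. Genes with an FPKM of at least 1 in at least 3 of the 11 thalamus libraries were kept (14433), 324 of other biotypes were left out, 336 of unknown biotype stayed, and 14109 were tested. The main test was limma (3.58.1, R 4.3.3) with an intensity trend on log2(FPKM + 0.1), so fold changes of low genes are understated. It was fitted to the 3 thalamus groups without a replicate block, with Benjamini-Hochberg adjustment at 0.05. Since the unit is FPKM, edgeR and DESeq2 were not run on it here. GC content was that of the longest GENCODE transcript (release vM21, GRCm38) of each Entrez gene ID, found for 15013 IDs. Biotypes and coordinates came from RefSeq by Entrez gene ID (15947 IDs matched, 442 did not). The correction subtracted a natural spline of 5 degrees of freedom from each library. GC content was known for 94.7% of the genes tested. The members and gene lists were chosen with earlier results of these data known. Named genes were those called or else the 20 of smallest p, the 12 largest and 12 smallest log2 fold changes among genes with a named symbol, groups without overlap, an unadjusted p under 0.05 and a mean of at least 1 FPKM, the 10 largest and smallest that also held after correction, extremes of each list, genes the paper names or stains, candidate substrain genes and the 5 genes most like *Gabra2*. Scripts were tested on simulated data. Exact permutation tests used SciPy 1.17.1. A few genes that the rule named are not reported here.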

Additional observations from a re-analysis of the deposited data

Results flagged for a closer look

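Among the named genes, 268 groups of 4 thalamus libraries were examined for a sample far from the others by Dixon's test, and 24 had one. Chance alone gives about 1 in 20 such groups. Groups of 3, which include GFP-BM CON, were not examined.

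WT CON replicate 2, the library with the highest GC measure, was the far sample in most of the WT CON cases. It was high for *Mmgt2* (7.60 FPKM, others 6.02 to 6.26), *Selplg* (7.52, others 4.28 to 4.77), *Lyz2* (29.7, others 12.8 to 14.8), *Pdgfrb* (8.22, others 5.52 to 5.74), *Vwf* (7.60, others 3.88 to 4.34), *Gfap* (146, others 63.0 to 75.3) and *C1qa* (87.7, others 51.9 to 55.7). It was low for *Siglech* (1.96, others 4.09 to 4.27) and for *Wdfy1* (3.53, others 6.56 to 7.03). WT CON replicate 1 was high for *Plcxd3* (1.10 FPKM, others 0.177 to 0.208), *Kcna3* (1.95, others 0.740 to 0.864), *Ms4a6c* (0.441, others 0.210 to 0.224) and *Cd46* (0.703, others 0.119 to 0.190). WT CON replicate 4 was low for *Golm1* (3.70 FPKM, others 5.88 to 6.28).

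In GFP-BM REPOP, animal 2 was high for *Plac9a* (19.8 FPKM, others 3.19 to 5.72), *Plac9b* (10.1, others 1.51 to 2.62), *Entpd4b* (46.8, others 30.5 to 32.8), *Ccl21b* (6.22, others 0.214 to 0.603) and *Ccl27b* (5.77, others 4.99 to 5.11). Animal 3 was high for *Gabra2* (31.3 FPKM, others 15.0 to 16.4). Animal 1 was high for *Cytl1* (1.23 FPKM, others 0.561 to 0.652) and *Aldh1l2* (2.05, others 1.44 to 1.54). Animal 4 was low for *Gabrg1* (5.60 FPKM, others 9.23 to 9.95) and *Gria4* (14.9, others 17.98 to 18.5).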

How the results depend on the processing

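With limma the number of genes called was 0 in the main fit. It was 245 with a pseudocount of 1 (240 higher, 5 lower), 1319 with all 9 groups in 1 fit (1147 and 172), 652 with array quality weights (614 and 38), 315 with quantile normalization (272 and 43), 2 after correction for GC content, 2 after correction for GC content and length, and 1439 after GC correction without WT CON replicate 1. Leaving out 1 library at a time gave 0 to 1130 calls, and with GC correction (chosen after seeing the data) 0 to 8, apart from WT CON replicate 1. The calls without WT CON replicate 1 were made in a fit of fewer samples, and the cause was not tested. The count stayed at 0 with a pseudocount of 0.01, without a filter, with other filters and biotypes, without trend, with a robust fit, with median-ratio scaling, in a fit of the 2 groups and with voom on recovered reads. With the replicate number as a block it was 0 as well (2485 genes at an unadjusted p under 0.05), and 0 with GC correction and the block (2339). Same-numbered animals are not the same animal between groups, the correlation of their deviations ran from -0.411 to 0.115, and the numbers do not pair the libraries. edgeR and DESeq2 were not run.

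Of 4856 settings of 133 genes, 4475 left the call as it was, among them 113 in which a gene with an unadjusted p of 0.05 or more changed sign, 346 brought a gene past the threshold and 35 turned the sign of a gene with an unadjusted p under 0.05. GC correction, GC and length correction, GC correction with the block and GC correction without WT CON replicate 1 gave *Gabrg1* -0.207, -0.196, -0.161 and -0.197, *ND6* -0.649, -0.511, -0.652 and -0.774, and the mitochondrial list a median of -0.903, -0.765, -0.923 and -1.034. *ND5* gave -0.1 with GC correction, -0.123 with the block and -0.132 without WT CON replicate 1, and *Polb* gave -0.016 with the block and -0.084 without WT CON replicate 1. With GC correction and WT CON replicates 2, 3 or 4 or GFP-BM CON replicates 1, 2 or 3 left out in that order, *Gabrg1* gave -0.437, -0.142, -0.053, -0.188, -0.061 and -0.374, *ND5* -0.073, -0.073, -0.122, -0.095, -0.064 and -0.141, and *ND6* -0.583, -0.54, -0.697, -0.624, -0.541 and -0.781. Likewise *Polb* gave -0.041 and -0.052 without WT CON replicates 3 and 4, *P2ry12* -0.156 without WT CON replicate 2, and *Ide* -0.003 without WT CON replicate 4. Of 43 lists, 702 settings of the median stayed within the spread of the controls, 25 moved beyond it and 4 reversed.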

Other observations

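Large gene families shared small shifts, and genes of like GC content were mostly shifted the same way. In the bin of 50.06% to 51.99% GC the median log2 fold change was -0.12 and the upper quartile 0.005. The ribosomal list below had a median GC content of 51.0%. All 77 cytosolic ribosomal protein genes tested had a negative log2 fold change, with a median of -0.21, and 6 lay lower in GFP-BM CON without overlap, under the 8.59% of all genes tested. After GC correction the median was -0.14, 68 were negative and 10 lay lower, against 10.3% of all genes. Nuclear genes of the respiratory chain were negative in 77 of 82 cases, with a median of -0.16. Of these genes 4 lay lower without overlap, against 8.59% of all genes. Proteasome subunit genes were negative in 31 of 37 cases, with a median of -0.14, and 10 lay lower without overlap after correction, against 10.3% of all genes.

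Zinc finger transcription factor genes, which are often AT-rich (median GC content 45.0%), lay higher without overlap in 112 of 310 cases and lower in 19. Of the 310, 34 were under 1 FPKM in every WT CON library and were tested only through the transplanted groups, and 32 of these are among the higher ones. Their median log2 fold change was 0.34, and 0.06 after correction, when 53 lay higher and 31 lower. Of 77 splicing factor genes, 18 lay higher and 14 lower, and after correction 10 and 21. Genes of intraflagellar transport and the BBSome, which build cilia, had 10 higher and 3 lower of 35, and 6 and 3 after correction. Over all genes the shares without overlap were 14.8% higher and 8.59% lower, and 7.51% and 10.3% after correction.

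The 8 ependymal genes tested were all negative, with a median of -0.47, and none was without overlap. The 4 genes of red blood cells, a measure of blood left in the vessels, were negative too, with a median of -0.61 and overlapping groups, at 234 to 613 FPKM in sum in WT CON and 129 to 392 FPKM in GFP-BM CON. Some AT-rich genes were a little lower in every transplanted library. *Btrc*, a ubiquitin ligase gene of 40.5% GC, was 23.8 to 29.9 FPKM in WT CON and 20.1 to 21.8 FPKM in GFP-BM CON, and *Klhdc2*, another ubiquitin ligase component with 41.9% GC, was 87.0 to 95.4 FPKM against 81.0 to 84.1 FPKM, while most genes of their GC content lay higher.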
